A study of Mus musculus with 2 samples.

Results

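The killer cell lectin-like receptors are C-type lectin-like proteins of the cell surface, encoded by the Klr genes. The members were all rows whose gene symbol begins with Klra to Klrk and carries no pseudogene suffix, which gave 26 of 31054 gene rows. Their RNA was counted in single cells taken out of mammary tumours in inAd-Chaser-mTmG mice of the C57BL/6 strain. These mice carry Adiponectin-rtTA, TRE-Cre and the Rosa26 mT/mG reporter, so that under doxycycline Cre acts in cells that express Adiponectin, removes tdTomato and leaves EGFP on in those cells and their progeny. Every cell of both groups came from the gate of EGFP+ and tdTomato- cells, and each group was 1 10x Genomics library. The Met-1 transplant group is labelled as a tumour grown from implanted Met-1 cells, whereas the text of the series names EO771 as the implanted line. In the PyMT tumour group the reporter mice also carried the PyMT oncogene, which gives rise to mammary tumours. Ages, the number of animals and the dose of doxycycline were not given in the sources used here.

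Most members sit on natural killer (NK) cells and some T cells, where they read major histocompatibility complex class I and related molecules or other lectins on neighbouring cells and deliver either an inhibitory or an activating signal. Inhibitory members carry a tail motif that recruits phosphatases, and activating members pair with adaptors such as Tyrobp (DAP12) and Hcst (DAP10). In the mouse the Klra genes (Ly49 receptors) are read out in a variegated way, so that each NK cell carries its own mix, and a few members, among them Klra2 (Ly49B) and Klra17 (Ly49Q), are known from myeloid cells.

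Of 2451 barcodes in the Met-1 transplant library 2112 were kept, with a median of 7684 unique molecular identifiers (UMIs, counted molecules), and of 619 in the PyMT tumour library 589 were kept, with a median of 3470. The libraries shared 0 barcodes. With 1 library a group there was no test between tumours, and no p-value is given. Levels are counts per 1000000 UMIs of the cells summed (CPM). Intervals are exact 95% intervals for counting error alone, and leave out how much cells or animals vary. Levels are compared within a gene and not between genes, except as parts of a sum. Fewer cells of a type and less RNA per cell cannot be told apart in a library's total.

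The 26 genes all lie on chromosome 6 of the mouse genome (GRCm38, which is mm10). In the GENCODE M21 annotation 24 of them lie between 128609227 and 131247362, a stretch of 2638 kb that begins with Klrb1a and ends with Klra2. Klrg1 and Klrg2 lie outside it. All 26 are annotated as protein coding. A member was counted as measured with at least 20 UMIs over the kept cells of either library. By that count 23 members were measured, all of them in the Met-1 transplant and 14 of them in the PyMT tumour, and Klrg2, Klrc3 and Klra10 were not, with 6 to 14 UMIs in the Met-1 transplant. The kept cells held 14413 member UMIs in the Met-1 transplant (729 CPM) and 981 in the PyMT tumour (228.5 CPM).

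Cells were put into sets by UMIs of marker genes, none of which is a member. NK cells had an Ncr1 UMI and at most 1 UMI of Cd3d, Cd3e and Cd3g, a gate that can also take in other innate lymphocytes with Ncr1, so that values of the NK set are those of a mixture. T cells had at least 2 CD3 UMIs, and were gamma-delta or alpha-beta by which of Trdc and Trac had at least 2 UMIs and more than the other. Other lineages needed a UMI of at least 4 of 10 markers, and lymphocytes that also had 4 markers of another lineage were set apart. In the Met-1 transplant this gave 140 NK, 32 gamma-delta T, 202 alpha-beta T and 98 T cells of unset chain, 791 macrophages or monocytes, 35 neutrophils, 7 dendritic cells, 267 B cells, 256 fibroblasts, 96 mural cells and 36 luminal cells, with 30 lymphocytes set apart and 122 cells unset. The gate for the NK set was checked with genes it did not use. Gzma stood at 3393 CPM in the NK set and 221 in the alpha-beta T set, Prf1 at 134.5 and 25.8, and Nkg7 at 2106 and 1331. Eomes, a transcription factor of conventional NK cells, had a UMI in 30 of the 140 NK cells. Its ratio of CPM, NK set over alpha-beta T set, was 1.29 (interval 0.852 to 1.95), so Eomes did not separate these sets. Macrophage or monocyte markers summed to 90.4 CPM in the NK set, 78.1 in the gamma-delta and 86.6 in the alpha-beta T set, against 16602 in the macrophage or monocyte set itself. In the NK set, dendritic, luminal and endothelial markers had higher sums than macrophage or monocyte markers, at 371, 232 and 103 CPM. The sums were 407, 220 and 8.37 CPM in the gamma-delta T set and 426, 176 and 18.8 CPM in the alpha-beta T set. The dendritic and luminal sets themselves had 2333 and 45442 CPM. Itgae, a dendritic marker, stood at 365.5 CPM in the NK set, and Cdh1, a luminal marker, at 105 CPM. The endothelial sum of the NK set came from 1 of the 10 markers.

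The NK set held the largest single share of receptor RNA. Its 140 cells, 6.63% of the kept cells, held 40.7% of the member UMIs of the Met-1 transplant (interval 39.9 to 41.5). The alpha-beta T set held 20.9%, the macrophage or monocyte set 12.1%, T cells of unset chain 9.94% and the gamma-delta T set 6.70%. Summed over all members, the level was 3985 CPM in the NK set, 2694.5 in the gamma-delta T set, 1616.5 in the alpha-beta T set and 257 in the macrophage or monocyte set. It was 58.3 CPM in B cells and 11.5 in fibroblasts, which are not known to carry most of these receptors. Median depths were 9763.5 UMIs in NK cells, 8147.5 in alpha-beta T cells and 15194 in fibroblasts. Every NK cell had at least 1 member UMI, whereas 55 of the 202 alpha-beta T cells had none.

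**Figure D1:**
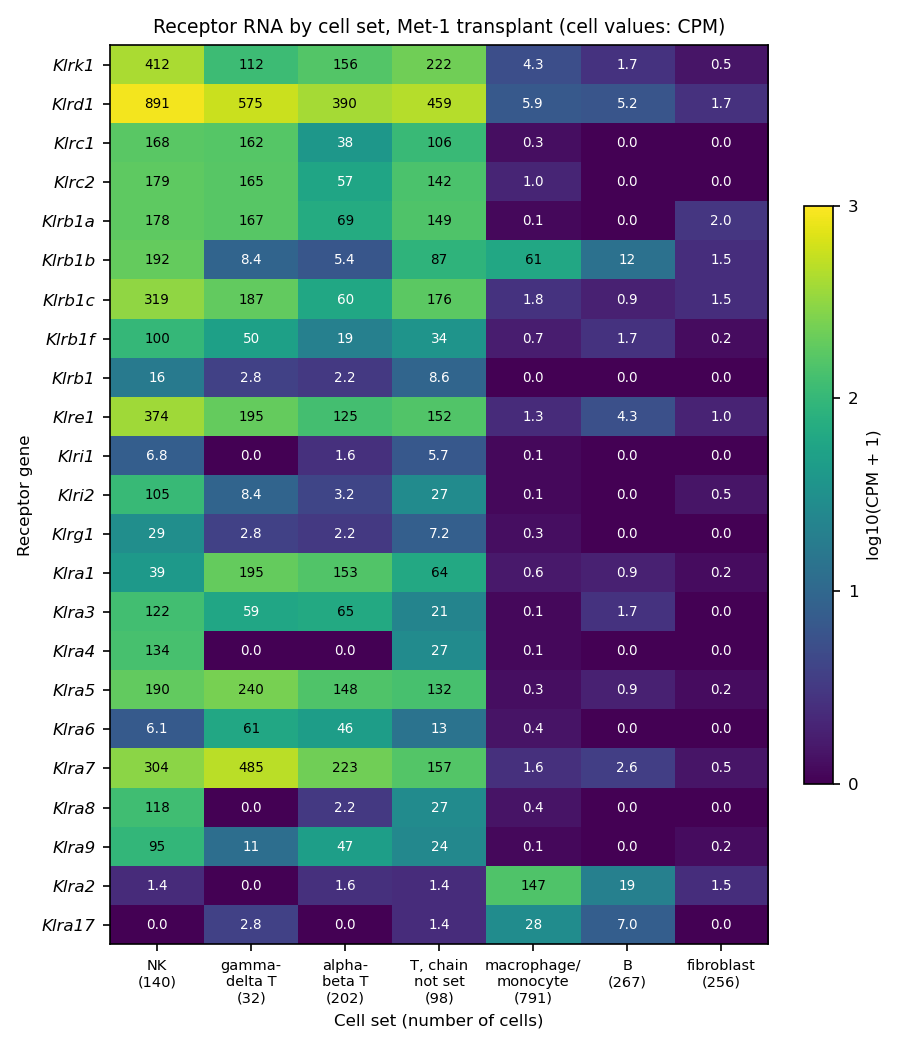
Level of the 23 measured receptor genes (rows) in 7 cell sets of the Met-1 transplant (columns, number of cells in brackets); the colour is log10(CPM + 1) and the printed value is CPM. Klra2 and Klra17 are high in the macrophage or monocyte set and near 0 in the lymphocytes, Klrb1b is high in NK cells and in the macrophage or monocyte set, and Klra4 and Klra8 are higher in NK cells than in any other set shown.

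The first comparison set NK cells against alpha-beta T cells of the same library. Genes with at least 50 UMIs in either set were compared, and a gene was called higher or lower at a 2-fold or larger ratio after 10 was added to each CPM. Of 18 members that reached the minimum, 12 were higher in NK cells, where 2.89% of all 4353 genes were, and 2 were lower, where 2.32% were. The median log2 ratio was 1.42 over these members and 0.10 over all genes. Members that reached the minimum did so in part because NK cells are rich in them, so the count describes the set and is no test.

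Klrk1 (NKG2D) is an activating receptor for stress ligands of the Raet1 and H60 families. It had 606 UMIs in 119 of 140 NK cells (412 CPM) and 291 UMIs in 68 of 202 alpha-beta T cells (156.5 CPM), 2.63-fold higher in NK cells (2.28 to 3.04). Klrd1 (CD94) is the shared partner chain of the NKG2 receptors for H2-T23, a non-classical class I molecule. It had the most UMIs of any member, 1311 in 137 of 140 NK cells (891 CPM) and 726 in 125 alpha-beta T cells (390 CPM), a ratio of 2.28 (2.08 to 2.50). Its partners Klrc1 (NKG2A, inhibitory) and Klrc2 (NKG2C, activating) were 4.46-fold (3.41 to 5.90) and 3.13-fold (2.49 to 3.97) higher in NK cells. Klrc1 stood at 168 against 37.6 CPM and Klrc2 at 179 against 57.0 CPM. The ends of the Klrc1 transcripts share 57.6% of their 31-base words with other members, mostly with Klrc2, so reads of these genes can be split or lost between them.

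The Klrb1 genes encode the NKR-P1 receptors, some of which bind Clec2 lectins. All of the 4 that reached the minimum were higher in NK cells. Klrb1c (NK1.1, activating) had 469 UMIs in 131 of 140 NK cells (319 CPM) against 111 UMIs in 50 alpha-beta T cells (59.7 CPM), a ratio of 5.34 (4.33 to 6.63). Klrb1a was 2.59-fold higher (178 against 68.8 CPM) and Klrb1f 5.16-fold higher (99.9 against 19.4 CPM). Klrb1b (NKR-P1B, inhibitory, a receptor for Clec2d) differed most, with 283 UMIs in 91 NK cells (192 CPM) and 10 UMIs in 6 alpha-beta T cells (5.38 CPM), a ratio of 35.8 (19.2 to 75.4). Klrb1 had 24 UMIs in NK cells and 4 in alpha-beta T cells, below the minimum.

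Klre1, Klri1 and Klri2 encode a further group, in which Klre1 pairs with either Klri protein. Klre1 had 551 UMIs in 112 NK cells (374 CPM) and 232 in 66 alpha-beta T cells (125 CPM), a ratio of 3.0 (2.57 to 3.51). Klri2, its activating partner, had 154 UMIs in 54 NK cells (105 CPM) and 6 UMIs in 4 alpha-beta T cells (3.23 CPM), a ratio of 32.4 (14.6 to 89.7). Klri1, the inhibitory partner, had 20 UMIs in the whole library, 10 of them in NK cells. Klrg1, an inhibitory receptor for cadherins that marks mature NK and effector T cells, had 43 UMIs in 22 NK cells and 4 UMIs in 4 alpha-beta T cells, a ratio of 13.6 (4.94 to 52.1), also below the minimum of 50 UMIs.

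The Klra genes lay in different cell sets. Klra4 (Ly49D) and Klra8 (Ly49H), which signal through DAP12, had 74.7% and 67.7% of their Met-1 transplant UMIs in the NK set, and Klra2 and Klra17 had 93.4% and 85.8% of theirs in the macrophage or monocyte set. The RefSeq promoters of these 4 genes are shown because they are among the most alike of the family although the genes differ in the set that holds most of their UMIs. Each runs from 250 bases before to 50 bases after the annotated start, in the build GRCm38.p6, on the minus strand of chromosome 6. Capitals mark bases with no identical base in the alignment to the Klra4 promoter, which is therefore all in lower case. They lie at chr6:130067222-130067521 (Klra4), chr6:130129849-130130148 (Klra8, the first of 2 listed starts), chr6:129876623-129876922 (Klra17) and chr6:131247313-131247612 (Klra2).
Klra4: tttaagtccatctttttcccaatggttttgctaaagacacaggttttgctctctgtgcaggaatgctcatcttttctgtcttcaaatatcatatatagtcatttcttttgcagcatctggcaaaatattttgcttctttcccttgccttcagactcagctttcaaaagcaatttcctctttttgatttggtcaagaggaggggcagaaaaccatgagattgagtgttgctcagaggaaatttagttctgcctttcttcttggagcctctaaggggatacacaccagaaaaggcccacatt
Klra8: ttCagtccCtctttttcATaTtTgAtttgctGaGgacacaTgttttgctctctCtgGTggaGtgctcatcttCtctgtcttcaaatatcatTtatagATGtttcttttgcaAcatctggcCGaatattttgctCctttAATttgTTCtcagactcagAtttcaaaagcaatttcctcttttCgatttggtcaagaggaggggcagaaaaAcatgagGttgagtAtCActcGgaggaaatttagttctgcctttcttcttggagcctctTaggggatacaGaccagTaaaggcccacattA
Klra17: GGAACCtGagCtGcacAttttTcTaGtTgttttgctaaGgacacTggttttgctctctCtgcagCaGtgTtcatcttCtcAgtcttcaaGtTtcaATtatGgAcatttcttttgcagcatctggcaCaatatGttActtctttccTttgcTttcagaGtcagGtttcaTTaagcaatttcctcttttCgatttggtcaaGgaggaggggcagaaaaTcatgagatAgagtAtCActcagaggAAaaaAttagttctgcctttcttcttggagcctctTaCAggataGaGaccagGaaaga
Klra2: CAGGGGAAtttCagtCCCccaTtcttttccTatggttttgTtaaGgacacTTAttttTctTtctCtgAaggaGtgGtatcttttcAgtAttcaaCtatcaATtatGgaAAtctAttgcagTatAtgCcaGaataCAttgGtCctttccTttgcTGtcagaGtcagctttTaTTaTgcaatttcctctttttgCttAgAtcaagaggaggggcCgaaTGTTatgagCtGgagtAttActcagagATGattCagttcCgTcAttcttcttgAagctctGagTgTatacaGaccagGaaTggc
Over the 55 pairs of the 11 Klra promoters, identity in a global alignment ran from 46.5% to 86.0% with a median of 51.7%. Klra4 and Klra8 were the most alike pair. Klra17 shared 79.9% with Klra4 and 79.4% with Klra8, more than the 75.1% it shared with Klra2, and Klra2 shared 71.6% with Klra4. Klra3 and Klra9 shared 84.9%. The promoter table held 23 of the 26 members and not Klrd1, Klrg1 and Klri2. Motifs were searched on both strands of these windows. The RUNX motif TGTGGT was in 8 of the 23 (34.8%) and in 16.9% of 27025 promoters of the same length, the STAT motif TTCNNNGAA in 4 (17.4%) and 8.47%, the ETS core AGGAAG in 7 (30.4%) and 35.1%, the T-box motif GGTGTGA in 1 (4.35%) and 3.96%, and the PU.1 motif GAGGAAGT, which contains the ETS core, in 0 and 3.28%. Of the 4 promoters printed, Klra2 held 1 STAT motif and none of the other motifs was in any of them. The 8 members with the RUNX motif were Klra1, Klrb1a, Klrb1c, Klrc1, Klrc2, Klrc3, Klre1 and Klrk1.

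Among the Klra genes of lymphocytes, Klra4 had 198 UMIs in 29 of 140 NK cells (134.5 CPM) and 0 UMIs in the 202 alpha-beta and the 32 gamma-delta T cells. With 3 UMIs set in place of 0, the ratio of NK to alpha-beta T cells was 83.4, and the exact interval of the ratio began at 67.2. Another 19 Klra4 UMIs lay in 1 T cell of unset chain. Klra8 had 174 UMIs in 32 NK cells (118 CPM) and 4 UMIs in 2 alpha-beta T cells, a ratio of 55.0 (21.1 to 204), and 0 UMIs in gamma-delta T cells. The inhibitory class I receptors Klra3 (Ly49C) and Klra9 (Ly49I) were between the thresholds, at 122 against 64.5 CPM and 95.1 against 46.8 CPM, with ratios of 1.90 (1.5 to 2.41) and 2.03 (1.54 to 2.69). Klra9 shares 73.7% of the 31-base words of its transcript ends with other members, Klra3 57.4% and Klra8 39.6%, so that counts of these 3 genes are uncertain where reads could fall in either copy.

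Klra7 (Ly49G, inhibitory) and Klra5 (Ly49E) differed least between the sets. Klra7 stood at 304 CPM in 52 NK cells and 223 CPM in 44 alpha-beta T cells, a ratio of 1.36 (1.19 to 1.56), and Klra5 at 190 and 148 CPM, a ratio of 1.29 (1.08 to 1.52). The opposite direction was seen for Klra1 (Ly49A, inhibitory), with 58 UMIs in 11 NK cells (39.4 CPM) and 285 UMIs in 36 alpha-beta T cells (153 CPM), 3.89-fold lower in NK cells (2.92 to 5.25). Klra6 (Ly49F) had 9 UMIs in 5 NK cells (6.12 CPM) and 86 UMIs in 40 alpha-beta T cells (46.2 CPM), 7.56-fold lower in NK cells (3.8 to 17.1). In the NK set 1 cell held 15 of the 58 Klra1 UMIs.

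**Figure D2:**
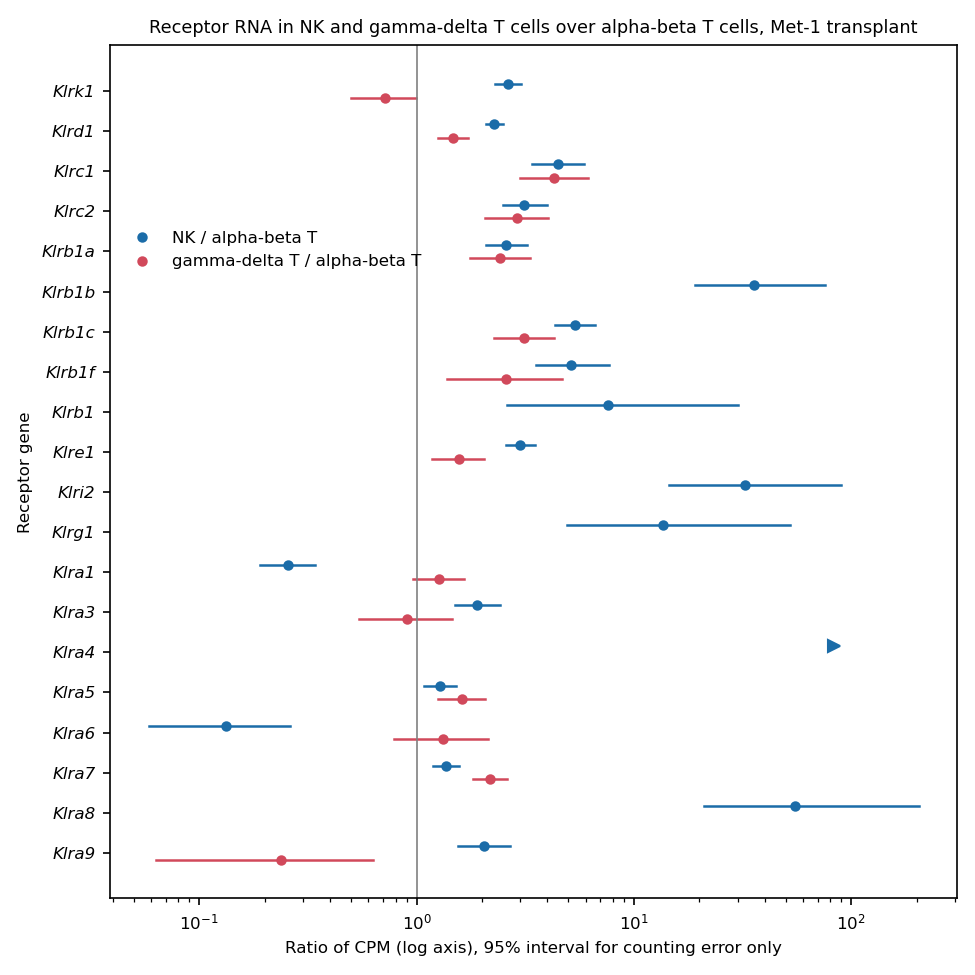
Ratio of CPM (log axis) of NK cells (blue) and gamma-delta T cells (red) over alpha-beta T cells in the Met-1 transplant, for receptor genes with at least 20 UMIs in the 2 sets together; lines are 95% intervals for counting error only, and the triangle is a lower bound. Klrb1b, Klri2, Klra4 and Klra8 lie farthest to the right for NK cells, and Klra1 and Klra6 lie left of 1 for NK cells and not for gamma-delta T cells.

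The gamma-delta T cells were set against the same 202 alpha-beta T cells, so these ratios and those of the NK cells share their denominator. Of 13 members that reached the minimum, 5 were higher than in alpha-beta T cells, where 0.822% of all 4138 genes were, and 1 was lower, where 1.91% were. The median log2 ratio was 0.61 over the members and 0.08 over all genes. Some members reached the minimum through alpha-beta T cells alone, such as Klra9 with 87 UMIs there, so the counts are no test. With 50 UMIs required in both sets, 5 of 9 members were higher and 0 lower. Klrc1 was 4.30-fold higher (162 against 37.6 CPM, interval 2.98 to 6.17), Klrb1c 3.13-fold (2.28 to 4.28), Klrc2 2.89-fold (2.06 to 4.01) and Klrb1a 2.43-fold (1.76 to 3.33). Klra7 reached 485 CPM in 16 of 32 gamma-delta T cells, 2.18-fold above alpha-beta T cells (1.82 to 2.61). The calls of Klrb1a and Klra7 lay near the 2-fold limit, with log2 ratios of 1.17 and 1.09. Without the cell with the most UMIs of each gene in each set, both log2 ratios were 0.99, and 3 members were higher. Klra9 was lower, with 4 UMIs in gamma-delta T cells, a ratio of 4.19 in favour of alpha-beta T cells (1.58 to 15.7), and with T chains set by 1 UMI its log2 ratio was -0.18. Klra1 stood at 195 CPM and Klra6 at 61.4 CPM, with ratios to alpha-beta T cells of 1.27 (0.967 to 1.66) and 1.33 (0.791 to 2.14), and Klrb1b and Klri2 had 3 UMIs each.

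Within alpha-beta T cells the level of the receptors differed with the coreceptor RNA. The 136 cells with Cd8a or Cd8b1 and no Cd4 held 1676 member UMIs (1232 CPM), and the 16 cells with Cd4 and no Cd8 RNA held 1, a Klrd1 UMI. All 11 members that reached the minimum were counted as higher in CD8 cells, where 20.9% of all genes were, and 0 as lower, where 3.05% were. These 11 reached the minimum through the CD8 cells, and the 16 CD4 cells were shallower (median 4981 against 8614 UMIs), so the count adds nothing to the levels. At this depth, with 0 UMIs in the CD4 cells, the exact interval of the ratio began at only 3.72 for Klra7 and 3.07 for Klra5.

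A split by CD8 chain was chosen after the values of the whole set were seen. Conventional cytotoxic T cells pair the chains of Cd8a and Cd8b1, whereas some unconventional T cells carry only the Cd8a chain or neither coreceptor. The summed level was 703 CPM in 95 cells with Cd8b1, 2229 CPM in 42 cells with Cd8a and no Cd8b1, and 3267 CPM in 49 cells with no UMI of Cd4, Cd8a or Cd8b1. Median depths were 8181, 9377.5 and 8033 UMIs. Cells without a UMI of a coreceptor gene may still express it, so the groups set by missing UMIs can be mixtures. Klra1 had 4 UMIs in 2 of the 95 Cd8b1 cells, 80 UMIs in 12 of 42 cells with Cd8a alone and 201 UMIs in 22 of 49 cells with neither. The ratio of Cd8a-alone cells to Cd8b1 cells was 37.8 for Klra1 (14.2 to 142), 10.7 for Klrb1c (5.57 to 22.4), 9.67 for Klra7 (6.70 to 14.3), 7.69 for Klrb1a (4.32 to 14.6) and 6.36 for Klra6 (3.18 to 13.8). It was smaller for Klrk1, 3.11 (2.21 to 4.41), and for Klrd1, 2.03 (1.69 to 2.44), which had UMIs in 58 of the 95 Cd8b1 cells.

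Set against the Cd8b1 cells alone, the NK cells had more Klra1, at 39.4 against 4.47 CPM, a ratio of 8.81 (3.26 to 33.4). The ratio was 2.03 for Klra5 (1.58 to 2.62), and Klra6 had 9 and 11 UMIs. Klra1 reached 50 UMIs in this pair only through the NK cells. The direction of Klra1 between NK and alpha-beta T cells thus turned with the alpha-beta T cells it was set against. The size of the ratio changed for other Klra genes too. Against the Cd8b1 cells it was 7.76 for Klra7 (5.50 to 11.3), 9.45 for Klra9 (4.84 to 21.1) and 3.42 for Klra3 (2.34 to 5.15). Klra7, Klra9 and Klra3 also reached 50 UMIs in this pair only through the NK cells. In alpha-beta T cells 20 had UMIs of both Klra1 and Klra6, of 36 with Klra1 and 40 with Klra6, and 21 had UMIs of both Klra1 and Klra7.

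NK cells themselves were not uniform. Conventional NK cells are known for Eomes and Itga2 (CD49b), and tissue-resident innate lymphocytes for Itga1 (CD49a). In the NK set 15 cells had an Eomes or Itga2 UMI and no Itga1 UMI, and 79 had an Itga1 UMI and no UMI of the other 2 genes, with median depths of 8393 and 10016 UMIs. Klra7 had a UMI in 12 of the 15 and in 15 of the 79 cells. Its level was 1013 CPM (129 UMIs, at most 25 in a cell) against 130 CPM (113 UMIs, at most 34 in a cell), a ratio of 7.76 (5.99 to 10.1). Klra4 had a UMI in 7 of 15 and 8 of 79 cells and stood at 518 against 40.4 CPM, a ratio of 12.8 (8.39 to 19.9).

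Other Klra genes followed in part. Klra8 stood at 283 against 43.9 CPM (6 of 15 and 9 of 79 cells), Klra9 at 243 against 53.1 CPM (5 and 10 cells), and Klra6 had 8 UMIs in 4 of the 15 cells and 0 in the 79. Klra5 went the other way, with 6 UMIs in 2 of the 15 cells and 193 UMIs in 30 of the 79, 4.73-fold lower in the Eomes or Itga2 cells (2.13 to 13.1). Klrb1b was also lower there, 78.5 against 230 CPM, by 2.93-fold (1.56 to 6.20). Klrd1, Klrb1c and Klrb1a had ratios of 1.07 (0.878 to 1.3), 0.991 (0.682 to 1.40) and 0.929 (0.567 to 1.46). Klrg1 had 11 UMIs in 6 of the 15 cells and 16 UMIs in 6 of the 79. A UMI is a chance draw, so cells without an Eomes UMI may still express it, and NK cells with UMIs of both kinds or of neither were not compared.

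**Figure D3:**
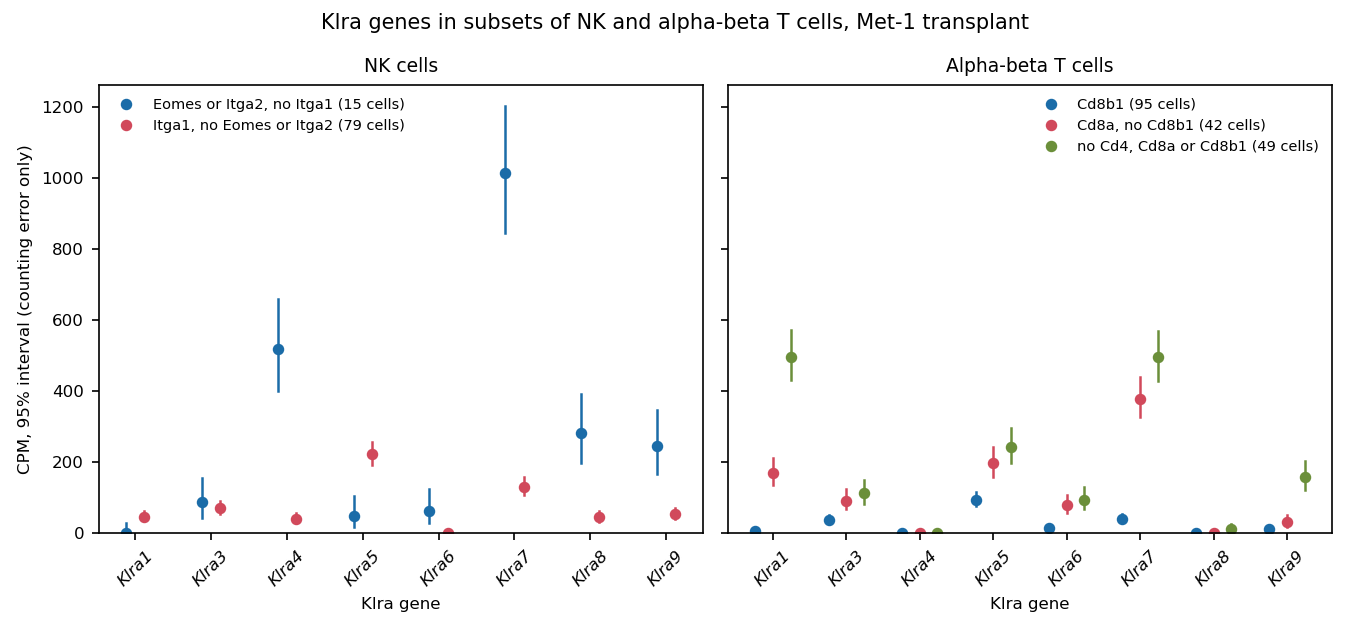
CPM of 8 Klra genes, with 95% intervals for counting error only, in 2 subsets of NK cells (left) and 3 subsets of alpha-beta T cells (right) of the Met-1 transplant. Klra4 and Klra7 are higher in NK cells with Eomes or Itga2 and Klra5 in those with Itga1, and Klra1 and Klra7 are higher in alpha-beta T cells without Cd8b1.

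The split of NK cells by Itgam and Cd27, which mark later and earlier stages of NK maturation, gave smaller differences. It compared 12 cells with Itgam and no Cd27 with 43 that had Cd27 and no Itgam. Klra3 stood at 280 against 120 CPM, a ratio of 2.34 (1.48 to 3.66), Klra9 at 204 against 73.5 CPM, a ratio of 2.77 (1.58 to 4.80), and Klrg1, a gene of the late stage, at 76.4 against 35.7 CPM, a ratio of 2.14 (0.841 to 5.08). Klra4 and Klra8 had ratios of 0.756 (0.422 to 1.28) and 0.976 (0.503 to 1.77).

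Counted per cell, NK cells had UMIs of a median of 9 members and at most 15. Of the Klra genes, 47 of the 140 NK cells had none, 28 had 1, 20 had 2, 22 had 3 and 23 had 4 or more. Because such counts grow with depth, every cell was also thinned to 2000 UMIs. Then 30.7% of NK cells (23.2 to 39.1) had UMIs of at least 2 Klra genes, 28.1% of gamma-delta T cells (13.8 to 46.8) and 18.3% of alpha-beta T cells (13.2 to 24.4). Without thinning the shares were 46.4%, 59.4% and 30.7%. After thinning, the interval of the gamma-delta T cells, with 32 cells, spans the other 2 shares. Without thinning it ran from 40.6% to 76.3%, which takes in the NK share and not the alpha-beta share.

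**Figure D4:**
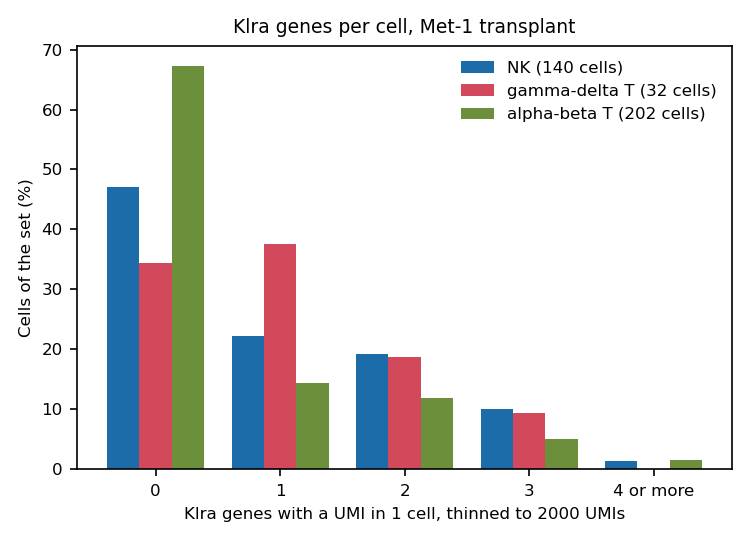
Share of cells (%) by the number of Klra genes with a UMI after thinning to 2000 UMIs, for 140 NK, 32 gamma-delta T and 202 alpha-beta T cells of the Met-1 transplant. About 47.1% of NK cells and 67.3% of alpha-beta T cells have none, and cells with 2 or 3 Klra genes occur in all 3 sets.

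Some Klra genes were often found in the same NK cell. Of 29 NK cells with Klra4, 26 had Klra7 and 18 had Klra8, and of 32 with Klra8, 25 had Klra7, whereas Klra7 was in 52 of all 140. Of the 48 NK cells with Klra5, 9 had Klra4. Klra3 and Klra9 had 4 cells in common, of 25 and 26. These counts are not adjusted for depth, and Klra8 shares part of its transcript end with Klra9.

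In macrophages or monocytes 3 members had more than 100 UMIs. Klra2 (Ly49B, an inhibitory receptor) had 1000 UMIs in 455 of 791 macrophages or monocytes (147 CPM, 138 to 156), which is 93.4% of its UMIs in the Met-1 transplant, with at most 12 in 1 cell. Klra17 (Ly49Q, inhibitory) had 187 UMIs in 97 of these cells (27.5 CPM, 23.7 to 31.7), or 85.8% of its UMIs. Klrb1b had 417 UMIs in 189 of them (61.3 CPM, 55.6 to 67.5), or 48.0%, while another 32.6% lay in NK cells. Klra2 had 2 UMIs in NK cells and 3 in alpha-beta T cells, and Klra17 had 0 in both. The other members had 0 to 40 UMIs in the 791 cells, and 15 of the 40 Klrd1 UMIs lay in 1 cell.

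The 3 myeloid genes did not run together in all of the set. In a split chosen after the set's values were seen, 21 cells had Ccr2, a receptor of recruited monocytes, and no C1qa, and 712 had C1qa, a complement gene of mature macrophages, and no Ccr2. Klra2 stood at 107 CPM (24 UMIs) and 146.5 CPM, a ratio of 0.731 (0.466 to 1.09). Klrb1b had 0 UMIs in the 21 Ccr2 cells and 375 in the C1qa cells (62.9 CPM). With 3 UMIs set in place of 0, the ratio of C1qa to Ccr2 cells was 4.70 for Klrb1b. The exact interval of that ratio began below this value, so 4.70 is no lower bound. Klra17 had 0 and 184 UMIs (30.8 CPM), and the exact interval of its ratio of C1qa to Ccr2 cells began at 1.86. The 21 cells were deeper, with a median of 10469 against 7420.5 UMIs. In the PyMT tumour only 4 cells had Ccr2 and no C1qa, and 2 Klrb1b UMIs lay in them.

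The 7 dendritic cells held 31 Klrd1 UMIs in 6 cells (348 CPM, 16 of them in 1 cell), 8 Klrk1 UMIs and 6 Klra17 UMIs in 1 cell. Klra2 also had 22 UMIs in 13 of 267 B cells, 7 of them in 1 cell. In fibroblasts each member had at most 8 UMIs, or 1.95 CPM, which marks the level of receptor RNA in cells not known to make it.

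Between the tumours, macrophages or monocytes could be compared in 791 and 184 cells, in which 3 members reached the minimum. The comparison of this set was added after the data were seen. Of the 3, 0 were counted as higher in the Met-1 transplant, where 5.61% of all 8290 genes were, and 0 as lower, where 1.17% were. Klra2 stood at 147 CPM in the Met-1 transplant and 121 in the PyMT tumour, a ratio of 1.22 (1.04 to 1.43). Klrb1b stood at 61.3 and 31.5 CPM, a ratio of 1.95 (1.45 to 2.67), and Klra17 at 27.5 and 11.3 CPM, a ratio of 2.43 (1.49 to 4.18), which the 10 CPM added before the ratio brings below 2. The PyMT tumour also held 176 neutrophils, in which Klra2 stood at 63.9 CPM (22 UMIs in 20 cells) and Klra17 at 58.0 CPM (20 UMIs in 15 cells). The 35 neutrophils of the Met-1 transplant had 6 Klra2 and 0 Klra17 UMIs, and at this depth 3 UMIs would be 32.5 CPM.

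**Figure D5:**
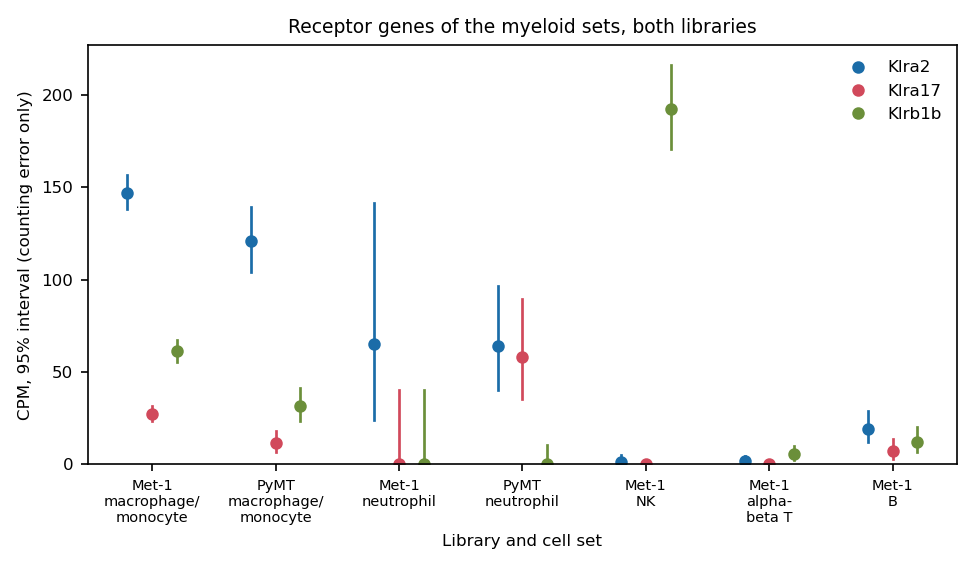
CPM of Klra2, Klra17 and Klrb1b with 95% intervals for counting error only, by library and cell set. Klra2 is high in macrophages or monocytes of both libraries, Klra17 is at 58.0 CPM in PyMT neutrophils, and Klrb1b is highest in NK cells.

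The alpha-beta T cells numbered 202 in the Met-1 transplant and 22 in the PyMT tumour, with summed levels of 1616.5 and 1209 CPM (interval of the latter 1027 to 1414). Of 13 members that reached the minimum, 2 were counted as higher in the Met-1 transplant, where 14.1% of all 4136 genes were, and 0 as lower, where 5.22% were. The share of members is near that of all genes. Klrd1 alone reached 50 UMIs in both libraries, with 51 in the PyMT tumour. The other members reached the minimum through the larger Met-1 set, so the counts describe the sets and are no test. Klra7 stood at 223 and 61.6 CPM (414 and 8 UMIs), a ratio of 3.61 (1.82 to 8.43). Klrc2 stood at 57.0 CPM and 0 UMIs, and the exact interval of its ratio began at 1.97. Klrd1 had a ratio of 0.994 (0.748 to 1.35). The other values rested on few PyMT cells: without the cell with the most UMIs of each gene in each library, 8 members were counted as higher in the Met-1 transplant, and 1 PyMT cell held all 6 Klra9 UMIs.

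NK and gamma-delta T cells of the PyMT tumour were too few to compare. Its 2 NK cells held 34 and 20 member UMIs from 7 and 9 members, and its 3 gamma-delta T cells 23 to 54 UMIs from 8 to 12 members. Klrc1 had 14 and 12 UMIs in these sets and Klra4 and Klra8 none. A group of 16 PyMT lymphocytes that carried markers of another lineage held 185 UMIs, 18.9% of the member UMIs of that library. In its 88 luminal cells, 60 of 70 member UMIs lay in 1 barcode.

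The partners of the receptors were listed as adaptors, ligands and genes of NK cells, with the NK against alpha-beta T values of the 3 genes of each list that had the most UMIs. The counts of each list stand beside 2.89% of all genes higher in NK cells and 2.32% lower. Of the adaptors and phosphatases 12 of 14 reached the minimum, 3 were higher in NK cells (Fcer1g, Tyrobp and Sh2d1b1) and 2 lower (Lat and Cd247), with a median log2 ratio of -0.02. Tyrobp, the adaptor of Klra4, Klra8 and Klrc2, stood at 2226 against 619 CPM, a ratio of 3.6 (3.36 to 3.85). Hcst, the adaptor of Klrk1, stood at 685.5 against 771 CPM, a ratio of 0.890 (0.820 to 0.965), and Fcer1g, the adaptor of Klrb1c, at 3206 against 1438.5 CPM, a ratio of 2.23 (2.12 to 2.34). In macrophages or monocytes Tyrobp and Fcer1g stood at 2599.5 and 2913 CPM and Hcst at 41.6 CPM.

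Of the ligands 14 of 18 were found and 6 reached the minimum in the pair, with 0 higher and 0 lower. The class I genes H2-D1 and H2-K1, read by inhibitory Klra receptors, and H2-T23, read by Klrd1 with Klrc1, had the most UMIs. H2-D1 stood at 3331 CPM in NK cells, 2871 in macrophages or monocytes, 1024 in fibroblasts and 1292 in luminal cells, and H2-T23 at 363, 353, 212 and 550 CPM. Clec2d, the ligand of Klrb1b, was highest of these sets in fibroblasts, at 196 CPM in 202 of 256 cells, against 88.5 CPM in macrophages or monocytes and 70.7 in NK cells.

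Of the other NK receptors 9 of 13 found reached the minimum. Il2rb, Ncr1 and Fcgr3 were higher in NK cells, and Ncr1 was part of the gate. Cd160 and Slamf6 were lower. Il2rb stood at 1014 against 462.5 CPM and Cd226 at 187.5 against 106 CPM. Of the genes of maturation and residency 10 of 18 reached the minimum, Tbx21 and Tnfsf10 were higher, Cd27 and Il7r were among the lower genes, and Itgae stood at 365.5 against 261 CPM, Itga1 at 242 against 128 CPM and Thy1 at 204.5 against 350 CPM. Of the cytotoxic effectors 11 of 12 reached the minimum, 5 were higher in NK cells (Gzmc, Gzma, Ccl4, Ccl3 and Prf1) and 0 lower, with a median log2 ratio of 0.87. Ccl5 stood at 5860.5 against 3213 CPM, Gzmc at 5331 against 714 CPM and Xcl1 at 3733 against 2338 CPM.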

How the data were processed

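The authors deposited, for each of 2 libraries, raw UMI counts for each gene in each barcode, which Cell Ranger 3.1.0 produced on mm10, per the file headers and the submitters' processing notes. The annotation release and how reads of similar genes were assigned were not given in the sources used here. Barcodes were kept if they had 500 or more UMIs, 200 or more genes and no more than 10% of UMIs from 13 mitochondrial genes, and doublets called by Scrublet (scanpy 1.11.5) were left out, at most 2 times the expected share. Counts were summed per set, and CPM, exact Poisson, Clopper-Pearson and conditional binomial intervals were computed with scipy 1.17.1. The ratio step was tested on simulated data. Members, lists and gates were chosen with earlier results of these data known. Every measured member was named, of the partner lists the 3 genes with the most UMIs, and the genes called among 5 or fewer. Promoters came from RefSeq and were aligned with Biopython 1.88. No protein sequence was used here. Alternatives varied the filters, gates, the CPM added and the UMI minimum. One gene of the list of maturation and residency is not reported here.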

Additional observations from a re-analysis of the deposited data

Results flagged for a closer look

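Receptor RNA was also present in the barcodes that the filters left out, which enter no comparison. In the Met-1 transplant these 339 barcodes held 1113 member UMIs, a level of 1093.7 CPM (1030 to 1160), against 729 CPM (717 to 741) in the kept cells. Of these UMIs, 813 lay in the 316 barcodes over the mitochondrial limit, and 127 of the 339 barcodes had a member UMI. They also held 50 Ncr1 UMIs. In the PyMT tumour the 30 barcodes left out held 2 member UMIs. With the mitochondrial limit at 20%, the counts of members higher or lower in the 4 comparisons of lymphocytes stayed within 1.5 times.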

How the results depend on the processing

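No sequencing replicate exists for either tumour, so that no alternative leaves out a replicate, and no paired analysis was possible because each group is 1 library. The NK share of member UMIs, 40.7%, was 39.9% with doublet calls kept, 33.6% with at least 2 Ncr1 UMIs, 34.3% with 0 CD3 UMIs, 31.8% with lymphocytes set apart at 3 markers of another lineage and 42.8% with them kept. Of NK and alpha-beta T cells, 1 member was lower with 50 CPM added, and with 50 UMIs required in both sets 7 were higher and 1 lower, of 12. Of gamma-delta and alpha-beta T cells, 3 were higher with 50 CPM added or without the top cell, and 0 were lower with 50 CPM added, with 50 UMIs in both sets or with chains set by 1 UMI. Of CD8 and CD4 cells 0 members reached 50 UMIs in both. Between tumours, 6 members were higher in alpha-beta T cells when lymphocytes with other-lineage markers were kept, 8 without the top cell and 0 with 50 UMIs in both sets, and in macrophages or monocytes 1 member, Klra17, was higher with 1 CPM added. The share of NK cells with at least 2 Klra genes was 17.1% at 1000 UMIs and 46.4% without thinning. The cause was not tested. Of 821 values of single genes under an alternative, 791 kept their call, 30 crossed the 2-fold limit and 0 reversed. Genes that fell below the UMI minimum under an alternative are not among the 821, so calls lost in that way are not counted. The alternatives for macrophages or monocytes were chosen after seeing the data. Depth limits the PyMT lymphocytes, the CD4 cells and members under 50 UMIs.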
